A study of Mus musculus with 2 samples.

Results

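The tubulin isotypes and stathmin are 10 genes that were chosen by symbol and found by gene identifier in the gene tables of both libraries: the alpha-tubulin genes Tuba1a, Tuba1b, Tuba1c and Tuba4a, the beta-tubulin genes Tubb5, Tubb4b, Tubb2a, Tubb6 and Tubb1, and the stathmin gene Stmn1. All 10 were found among 21461 nuclear protein-coding genes and 43346 mouse genes in all. The cells were common myeloid progenitors (CMP), bone marrow cells that give rise to granulocytes, monocytes, red cells and megakaryocytes. They were unmodified primary cells of male C57BL/6J mice aged 5 to 6 weeks, and each of the 2 libraries, biological replicates 2 and 1, came from a pool of 100 cells. Total RNA over 200 nucleotides was sequenced with spike-ins, which gave 26426710 expected counts in replicate 2 and 28916263 in replicate 1. One donor identifier is listed for both pools, and p-values therefore describe only these 2 libraries. Those of the exact binomial and Fisher tests below cover error in counting reads only, with each read taken as a separate molecule. Those of limma rest on the spread between the libraries, in part borrowed from all genes. No condition was compared, and genes were set against each other within CMP, and the libraries against each other.

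Microtubules are hollow polymers of alpha- and beta-tubulin heterodimers, and they form the spindle in dividing cells and the tracks for transport between divisions. Mammals have several genes, or isotypes, for each subunit, whose products are most alike in the folded core and most unlike in the acidic tail at the carboxyl end, which projects from the polymer and carries most of its modifications. Stathmin binds pairs of free heterodimers and promotes the shrinkage of microtubules, and it is known as a gene of proliferating and leukaemic blood cells. In the blood lineage, Tubb1 is the isotype of megakaryocytes and platelets, while Tubb3, Tubb2a, Tubb2b and Tuba1a are best known from neurons.

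The coding sequence of the tails is shown because the isotypes are told apart there. Each run covers the last 25 codons and the stop codon, from GENCODE M21 transcripts on GRCm38, and capitals mark the acidic codons GAA, GAG, GAT and GAC. On the minus strand lie the runs of Tuba4a (chr1:75215622-75215699), Tubb5 (chr17:35834982-35835059), Tubb4b (chr2:25222308-25222385) and Tubb2a (chr13:34074468-34074545). On the plus strand lies that of Tubb1 (chr2:174457805-174457882).
Tuba4a: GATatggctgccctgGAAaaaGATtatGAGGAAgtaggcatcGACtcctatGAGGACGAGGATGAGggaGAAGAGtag
Tubb5: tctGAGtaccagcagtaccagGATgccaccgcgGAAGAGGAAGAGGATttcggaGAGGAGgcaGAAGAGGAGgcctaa
Tubb4b: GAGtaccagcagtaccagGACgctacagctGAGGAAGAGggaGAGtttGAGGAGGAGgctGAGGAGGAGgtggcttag
Tubb2a: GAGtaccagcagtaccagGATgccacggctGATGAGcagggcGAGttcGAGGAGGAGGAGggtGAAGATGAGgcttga
Tubb1: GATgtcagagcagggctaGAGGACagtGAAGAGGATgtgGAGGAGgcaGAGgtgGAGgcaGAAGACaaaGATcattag

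The runs held 12 acidic codons in Tubb5, Tubb4b and Tubb2a and 13 in Tuba4a and Tubb1. The codon before the stop was a tyrosine codon in Tuba1b, Tuba1a and Tuba1c, and it was the acidic codon GAG in Tuba4a. That tyrosine is known as the residue that cells remove from and add back to alpha-tubulin. Over the whole coding sequence Tuba1b was 98.3% identical to Tuba1a and 98.0% to Tuba1c, but 85.2% to Tuba4a. The beta genes were further apart. Tubb5 was 84.6% identical to Tubb2a, 82.3% to Tubb4b, 80.6% to Tubb6 and 74.3% to Tubb1.

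Every level below is in transcripts per 1000000 (TPM), which corrects for transcript length and lets genes be compared. Ordered by level, the members ran Tuba1b, Stmn1, Tubb5, Tubb4b, Tuba4a, Tuba1c, Tuba1a, Tubb2a, Tubb6 and Tubb1, and the order was the same in each library. Tuba1b stood at rank 88 of 21461 nuclear protein-coding genes in replicate 2 and at rank 62 in replicate 1. Stmn1 ranked 129 in replicate 2 and 127 in replicate 1, and Tubb5 ranked 162 in replicate 2 and 138 in replicate 1. For comparison, 44.9% of nuclear protein-coding genes reached 1 TPM in both libraries, and the median of those genes was 13.5 TPM in replicate 2 and 13.2 in replicate 1.

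**Figure D1:**
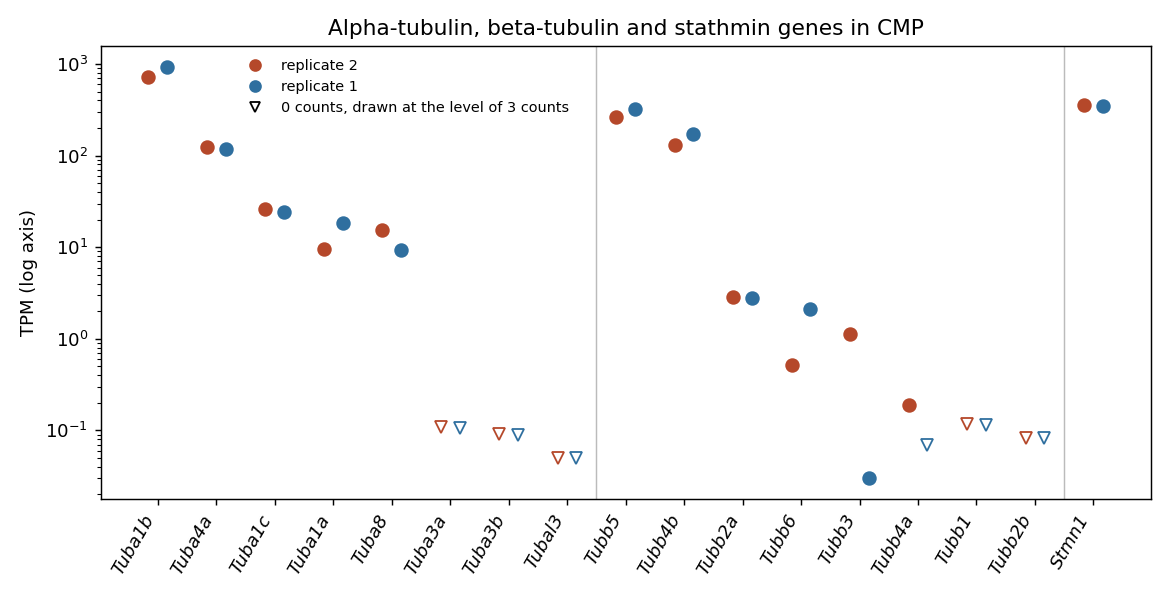
TPM (log axis) of the 8 alpha-tubulin genes, the 8 beta-tubulin genes and Stmn1 in replicate 2 (left point) and replicate 1 (right point), with genes at 0 counts drawn as open triangles at the level of 3 counts. Tuba1b, Tubb5, Tubb4b, Tuba4a and Stmn1 lie above 100 TPM in both libraries, and Tubb1 has 0 counts in both.

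Among the alpha-tubulin genes, Tuba1b carried most of the RNA. Tuba1b (ENSMUSG00000023004.8, chr15:98931425-98934565, minus strand), a broadly expressed alpha isotype of dividing cells, had 719 TPM in replicate 2 and 939 TPM in replicate 1, a mean of 829 ± 155 (SD, n = 2). It made up 80.5% of the summed TPM of the 8 alpha-tubulin genes in replicate 2 and 84.7% in replicate 1. The rest came mostly from Tuba4a (ENSMUSG00000026202.9, chr1:75214228-75219865, minus strand), an alpha isotype known from platelets and muscle, which had 123 TPM in replicate 2 and 117 TPM in replicate 1. Both values of Tuba4a lay well below both of Tuba1b. Its share of the alpha pool was 13.8% in replicate 2 and 10.6% in replicate 1.

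Tuba1c (ENSMUSG00000043091.8, chr15:99029891-99038110, plus strand), a close copy of Tuba1b on the same chromosome, had 26.1 TPM in replicate 2 and 24.4 TPM in replicate 1. Tuba1a (ENSMUSG00000072235.5, chr15:98949837-98953703, minus strand), the main alpha isotype of young neurons, had 9.56 TPM in replicate 2 and 18.2 TPM in replicate 1. The range of Tuba1a overlapped that of Tuba8, an alpha isotype outside the 10, which had 15.5 TPM in replicate 2 and 9.41 TPM in replicate 1, so these neighbours in the order did not differ beyond their spread. Tuba3a, Tuba3b and Tubal3, the remaining alpha genes, had 0 counts in both libraries, which allows up to 0.109 TPM (3 counts, the highest of the 3 genes).

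All 3 other alpha members were lower than Tuba1b in limma, which tested the mean log2 ratio of TPM plus 1 against 0. The log2 ratio to Tuba1b was -2.77 ± 0.32 (SE, adjusted p = 1.08e-17) for Tuba4a, -4.97 ± 0.33 for Tuba1c and -5.85 ± 0.37 for Tuba1a. The order of these ratios was the same in each library. Of all 10380 genes tested, 99.0% were lower than Tuba1b by the same rule, so this count of 3 of 3 is no result about the alpha genes. With 2 libraries the fit has 1 residual degree of freedom of its own per gene and borrows the rest from all genes. The smallest exact sign-flip p that 2 libraries allow is 0.5.

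Tuba1a, Tuba1b and Tuba1c share long stretches of sequence, and their counts rest on how the authors' estimate divided shared reads. Of all windows of 50 bases in the spliced transcript, 73.8% of those of Tuba1b, 72.9% of those of Tuba1a and 61.0% of those of Tuba1c occur in the same letters in a transcript of another gene. The value was 1.11% for Tuba4a. Tuba1b had 23249 expected counts in replicate 2 and 30809.7 in replicate 1, with a deposited posterior SD of 27.4 counts in replicate 2 and 31.3 in replicate 1. For Tuba1c the expected counts were 971 in replicate 2 and 919 in replicate 1, and the posterior SD was 27.1 in replicate 2 and 29.8 in replicate 1. Tuba1a had 291 counts with a posterior SD of 16.5 in replicate 2, and 259 with 12.3 in replicate 1. Relative to the count, the uncertainty of this split was larger for Tuba1c and Tuba1a than for Tuba1b. For Tuba4a and Tubb5 the deposited posterior SD was 0 at the level of the gene.

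The level of Tuba1a depended on a transcript model. In replicate 1, 78.3% of its TPM (14.3 TPM from 136 counts) was assigned to a short transcript of 610 bases, which had 0 counts in replicate 2. Release M21 of the annotation no longer places that transcript in Tuba1a. It gives a longer version of 899 bases to Gm49450 (chr15:98932137-98953551, minus strand), a model of 4 exons. That version has 473 exon bases in common with Tuba1a-201 and 426 with Tuba1b-201. The overlap of the counted 610 bases with either was not measured. From Tuba1a-201 alone, Tuba1a had 9.56 TPM in replicate 2 and 3.97 TPM in replicate 1, below Tuba8 in both libraries. On that reading its direction between the libraries was opposite to that of its gene TPM.

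Tuba4a was spread over more transcripts than any other member. Tuba4a-201, of 2083 bases, held 49.7% of the gene's TPM in replicate 2 and 20.3% in replicate 1. Tuba4a-206, of 1205 bases, held 15.5% in replicate 2 and 29.9% in replicate 1. The retained-intron transcript Tuba4a-205 held 26.1% in replicate 2 and 0.63% in replicate 1, and Tuba4a-207, a fragment of 346 bases, held 0% in replicate 2 and 18.9% in replicate 1. The only model with a complete coding sequence in M21, Tuba4a-202 of 2840 bases, held 5.78% in replicate 2 and 21.1% in replicate 1. Dividing all Tuba4a counts by the effective length of that transcript gave 67.1 TPM in replicate 2 and 60.2 TPM in replicate 1, below the deposited level and still above every alpha gene but Tuba1b. Tuba1b then held 85.9% of the alpha pool in replicate 2 and 90.2% in replicate 1. Tuba4a overlaps Stk16 on the opposite strand, and no source used here says whether counting used strand.

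**Figure D2:**
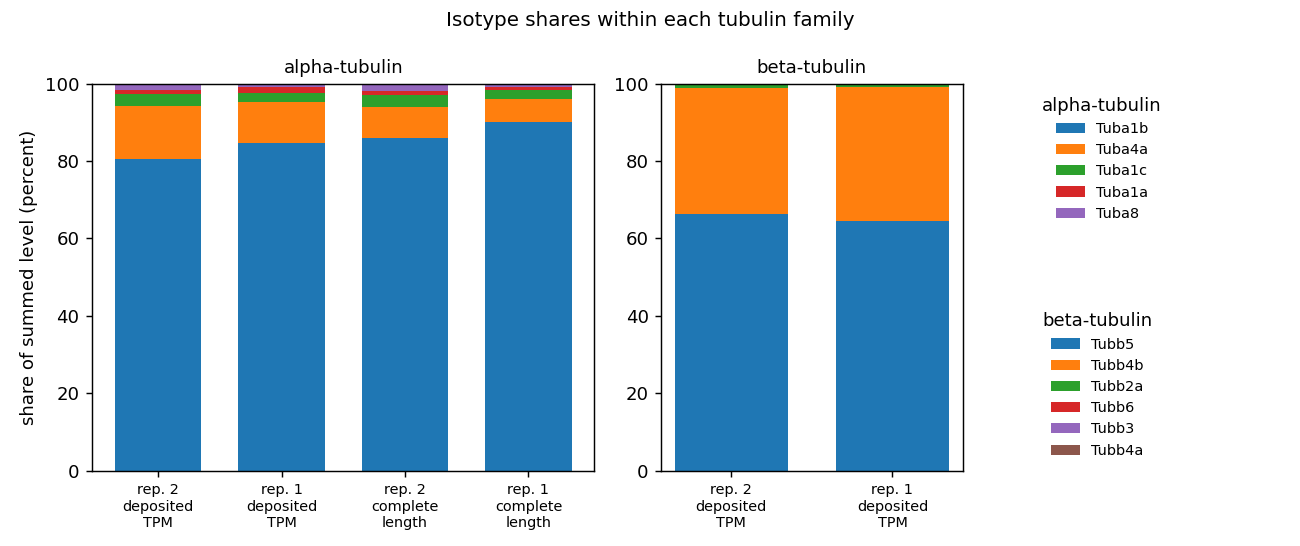
Share of the summed level (percent) of each alpha-tubulin gene, from the deposited TPM and with all counts over the length of the complete coding transcript, and of each beta-tubulin gene, in replicate 2 and replicate 1. Tuba1b takes over 80% of the alpha bars, and Tubb5 with Tubb4b takes nearly all of the beta bars.

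Alpha genes that end in a tyrosine codon made up 84.5% of the alpha TPM in replicate 2 and 88.6% in replicate 1. The remaining 15.5% in replicate 2 and 11.4% in replicate 1 came from Tuba4a and from Tuba8, in which the last codon is TTT. With the complete transcript lengths, the part without a tyrosine codon was 9.88% in replicate 2 and 6.68% in replicate 1.

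The beta-tubulin genes Tubb5 and Tubb4b carried nearly all of the beta pool. Tubb5 (ENSMUSG00000001525.10, chr17:35833921-35838306, minus strand), the most widely expressed beta isotype and one of dividing cells, had 266 TPM in replicate 2 and 323 TPM in replicate 1, a mean of 294 ± 40.6 (SD, n = 2). Tubb4b (ENSMUSG00000036752.4, chr2:25222160-25224702, minus strand), another broadly expressed isotype, had 131 TPM in replicate 2 and 174 TPM in replicate 1. Tubb5 was above Tubb4b in each library. Their shares of the summed TPM of the 8 beta genes were 66.3% and 32.5% in replicate 2, and 64.4% and 34.6% in replicate 1. The split between them therefore moved by only a few percentage points between the libraries.

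The other beta members were rare. Tubb2a (ENSMUSG00000058672.6, chr13:34074274-34078007, minus strand) had 2.88 TPM from 84 counts in replicate 2 and 2.77 TPM from 82 counts in replicate 1. Tubb2b, which shares 45.6% of the windows of Tubb2a, had 0 counts in both libraries. Tubb6 (ENSMUSG00000001473.6, chr18:67390717-67402749, plus strand), a beta isotype known from muscle and macrophages, had 0.52 TPM from 17 counts in replicate 2 and 2.14 TPM from 71 counts in replicate 1. Tubb6 was thus above 1 TPM in replicate 1 and below it in replicate 2.

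Tubb4b and the rare isotypes were lower than Tubb5 in the same limma test. The log2 ratio to Tubb5 was -0.96 ± 0.26 (SE, adjusted p = 0.000679) for Tubb4b, -6.26 ± 0.54 for Tubb2a and -7.07 ± 0.72 for Tubb6. These 3 of 3 stand beside 98.1% of all 10380 genes that were lower than Tubb5. Tubb4b shares 50.9% of its windows of 50 bases with other genes, mostly with the pseudogene Tubb4b-ps1, and it overlaps Fam166a on the opposite strand. Its posterior SD was 1.35 counts of 3765 in replicate 2 and 2.36 of 5021 in replicate 1.

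Tubb1 (ENSMUSG00000016255.5, chr2:174450695-174457882, plus strand), the beta isotype that forms the marginal band of platelets, had 0 counts in replicate 2 and 0 in replicate 1. A count of 0 allows up to 0.118 TPM in replicate 2 and 0.116 in replicate 1 (3 counts per library). By deposited TPM, Tubb5 was thus at least 2259-fold higher in replicate 2 and at least 2790-fold higher in replicate 1. Over its complete transcript length Tubb5 had 256 TPM in replicate 2 and 287 TPM in replicate 1, which would lower these folds. These limits cover counting error only, as reads carried no molecular identifiers and copies of 1 molecule may be counted apart. None of the 50-base windows of Tubb1 occurs in another gene. It was below the level needed for the ratio test and has no test here.

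Other genes of the megakaryocyte line were read in the same pools. Of 12 megakaryocyte and platelet markers, 7 reached 1 TPM in both libraries and 3 had 0 counts in both, and their summed level was 258 TPM in replicate 2 and 149 TPM in replicate 1. Itga2b, the integrin chain of the fibrinogen receptor, had 100 TPM in replicate 2 and 49.8 TPM in replicate 1. Pf4, platelet factor 4, had 95.0 TPM in replicate 2 and 52.0 TPM in replicate 1. The genes at 0 with Tubb1 were Clec1b, Gp6 and Ppbp, which encode platelet surface receptors and a platelet chemokine. In such pools, fewer cells of a type and less RNA per cell cannot be told apart.

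Stmn1 (ENSMUSG00000028832.7, chr4:134468320-134473843, plus strand) had 354 TPM in replicate 2 and 350.2 TPM in replicate 1, a mean of 352 ± 3.01 (SD, n = 2). Its SD was the smallest among the 5 members above 100 TPM in both libraries. The log2 ratio of Stmn1 to Tubb5 was 0.26 ± 0.28 (SE, adjusted p = 0.349 in limma), so these neighbours in the order did not pass the test, although Stmn1 was above Tubb5 in each library. Without correction for length the ratio was -1.09 (adjusted p = 3.85e-12), since the Stmn1 transcript of 1060 bases is shorter than the Tubb5 transcript of 2649 bases. Against Tuba1b, Stmn1 was lower by a log2 ratio of -1.22 ± 0.36 (adjusted p = 0.000714).

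Set against the summed TPM of the alpha and beta genes, Stmn1 amounted to 27.4% in replicate 2 and 21.8% in replicate 1. Without length correction these values were 14.1% in replicate 2 and 11.7% in replicate 1. Of its windows of 50 bases, 34.7% also occur in Gm11223, and its posterior SD was 2.69 counts of 6479.8 in replicate 2 and 2.25 of 6522 in replicate 1. The other stathmin genes Stmn2, Stmn3 and Stmn4, known from neurons, had 0 counts in both libraries. Of 8 neuron markers 7 had 0 counts in both libraries, the exception being Tubb3.

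The summed alpha TPM was 893 in replicate 2 and 1108 in replicate 1, and the summed beta TPM was 401 in replicate 2 and 502 in replicate 1. Alpha exceeded beta in RNA 2.23-fold in replicate 2 and 2.21-fold in replicate 1, a mean of 2.22 ± 0.0134 (SD, n = 2). Both pools were lower in replicate 2, and their ratio was close to the same. With the complete transcript lengths the ratio was 2.15 in replicate 2 and 2.26 in replicate 1.

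Between the libraries, 5 of the 9 members tested passed the exact binomial test with TMM scaling, against 78.2% of all 13616 genes tested. That share, 55.6%, is below the background, so the calls are not a result about these genes. The comparison sets 1 library against the other and describes those libraries. Because reads carried no molecular identifiers, copies of a molecule may be counted apart, and the p-values do not allow for that. Tuba1b was lower in replicate 2 by a log2 ratio of -0.43 (adjusted p = 9.71e-263), Tubb4b by -0.44 (adjusted p = 4.18e-45) and Tubb5 by -0.21 (adjusted p = 1.17e-31). Tuba4a was higher in replicate 2, by 0.12 (adjusted p = 0.00112). Tubb6 had the largest ratio of the members, -2.06 (adjusted p = 6.70e-09), from 17 counts in replicate 2 and 71 in replicate 1.

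The remaining tested members did not pass: the log2 ratio was -0.04 for Stmn1 (adjusted p = 0.170), 0.05 for Tuba1c (adjusted p = 0.487), 0.14 for Tuba1a (adjusted p = 0.303) and 0.01 for Tubb2a (adjusted p = 1). The size of the ratios was small for most members. Among the 9 tested, 8 differed less than 1.5-fold in gene counts, against 54.0% of all genes tested. The median size of the log2 ratio was 0.14 over the members and 0.51 over all genes. That background takes in every gene reaching 10 counts in either library and is not matched on count. Whether the members differed less than genes of like count was not tested. Tuba1a is among the 8 by gene counts, but its TPM was 9.56 in replicate 2 and 18.2 in replicate 1. From Tuba1a-201 alone its log2 ratio was 1.22. With the spread of all genes between the libraries taken into account, edgeR's exact test with 1 dispersion common to all genes called 0 of 13616 genes. In that test 1541 genes and 0 members had an unadjusted p under 0.05. Its dispersion, 0.575, was estimated from the same 2 libraries. Differences between them therefore enter as spread, and the absence of calls decides nothing about the members. Scaling by total counts ended the call of Tubb5 (log2 ratio -0.0044, adjusted p = 0.828) and turned Stmn1 to 0.17 (adjusted p = 2.08e-10). Under it Tuba1c (0.25, adjusted p = 0.000229) and Tuba1a (0.34, adjusted p = 0.00759) also passed, as higher in replicate 2.

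**Figure D3:**
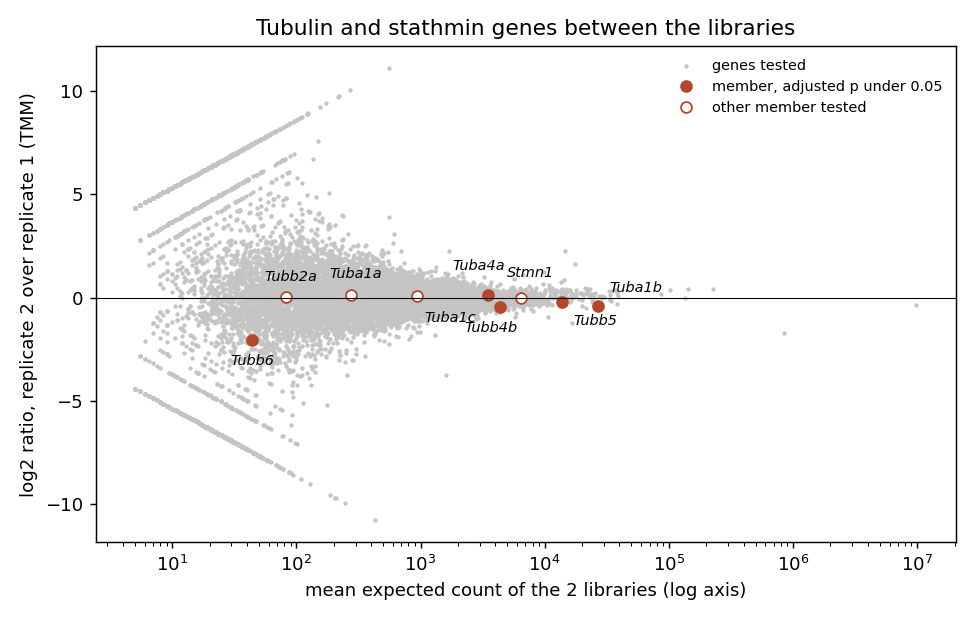
Log2 ratio of replicate 2 over replicate 1 (TMM) against the mean expected count (log axis) for all genes tested (grey) and the 9 members tested (red, filled where the adjusted p was under 0.05). The members other than Tubb6 lie near 0, and Tubb6 lies at -2.06.

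The leading transcript, that with the highest summed count, differed in its share of the gene's counts in 6 of the 6 members tested by Fisher's exact test, against 77.7% of all 7354 genes tested. The shift was large in Tuba1a and Tuba4a and small in the others. In Tuba4a, Tuba4a-201 took 65.3% of counts in replicate 2 and 28.3% in replicate 1 (adjusted p = 2.57e-214), and 21.1% of all genes tested had a shift of that size or larger. In Tuba1a, Tuba1a-201 took 100% of counts in replicate 2 and 47.3% in replicate 1 (adjusted p = 7.46e-56). The other 136 counts in replicate 1 were those of the transcript that M21 gives to Gm49450. Under M21 this is a split between Tuba1a and Gm49450, not a change within Tuba1a. The median shift over all genes was 12.97 percentage points.

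In Tubb5, Tubb5-201 took 98.6% of counts in replicate 2 and 95.0% in replicate 1 (adjusted p = 1.97e-69), a shift of 3.66 percentage points. Among protein-coding transcripts alone the shift was 0.23 points (adjusted p = 0.0279). In TPM its share was 94.9% in replicate 2 and 84.3% in replicate 1. The rest was mostly 2 retained-intron transcripts. Tubb5-203 held 1.75% and Tubb5-204 held 1.36% in replicate 2, and they held 5.04% and 8.13% in replicate 1. The protein-coding Tubb5-202 held 2.0% in replicate 2, above each of them, and 2.52% in replicate 1. Stmn1-201 held 97.5% of counts in replicate 2 and 94.7% in replicate 1, and Tubb4b-201 held 98.2% in replicate 2 and 97.2% in replicate 1. Tuba1b-201 held 99.9% of counts in replicate 2 and all 30810 in replicate 1. By counts, each of these 4 genes came mostly from 1 transcript in both libraries.

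**Figure D4:**
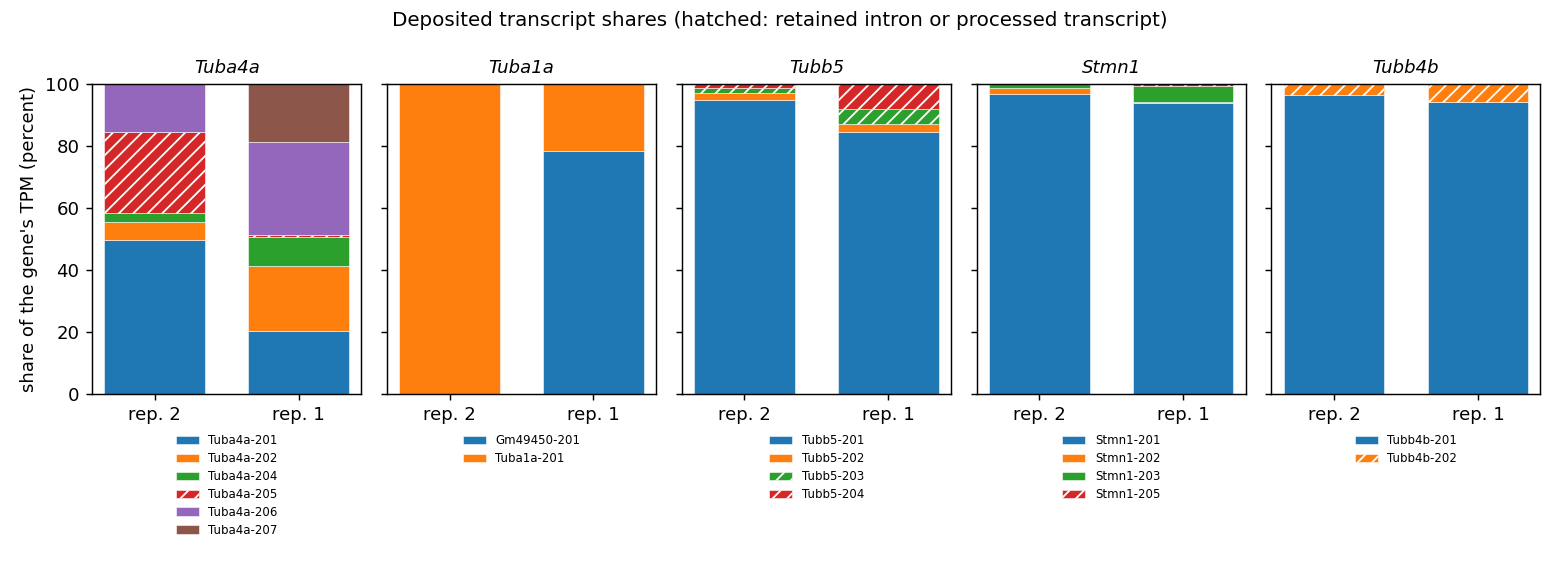
Share of each gene's TPM (percent) held by its deposited transcripts in replicate 2 and replicate 1 for Tuba4a, Tuba1a, Tubb5, Stmn1 and Tubb4b, with retained-intron and processed transcripts hatched. Tubb5, Stmn1 and Tubb4b come mostly from 1 transcript, while the shares under Tuba4a and Tuba1a change between the libraries. Gm49450-201 is the transcript that M21 no longer places in Tuba1a.

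The list of 20 tubulin genes also held isotypes with few counts and the gamma-, delta- and epsilon-tubulins. Tubb3, the neuronal beta isotype, had 1.14 TPM from 40 counts in replicate 2 and 0.03 TPM from 1 count in replicate 1. Tubb4a had 8 counts in replicate 2 and 0 in replicate 1. Tubg1, the gamma-tubulin that nucleates microtubules, had 12.8 TPM in replicate 2 and 10.1 TPM in replicate 1, while its copy Tubg2 had 0 counts in both. Tubd1 and Tube1, the delta- and epsilon-tubulins of centrioles, had 2.03 and 1.25 TPM in replicate 2 and 7.44 and 5.63 TPM in replicate 1. Of the 13 genes of this list in the binomial test between the libraries, 3 passed as higher and 6 as lower in replicate 2, beside 78.2% of all genes called.

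RNA of the listed genes that help to make heterodimers was found throughout, and the list leaves out the chaperonin itself. Each of the 13 genes of the folding list was at 1 TPM or more in both libraries. The median was 31.2 TPM in replicate 2 and 30.5 TPM in replicate 1. In the binomial test 6 of the 13 passed as higher and 2 as lower in replicate 2, a share of calls below the 78.2% of all genes, so these calls are no result about the folding genes. The highest were Pfdn5, with 100.2 TPM in replicate 2 and 126 TPM in replicate 1, and Pfdn6, both subunits of prefoldin, which hands new tubulin chains to the chaperonin. Tbce and Tbca, cofactors for alpha- and beta-tubulin, followed at 60.5 and 48.6 TPM in replicate 2 and at 64.5 and 49.8 TPM in replicate 1. Pfdn6 had 77.7 TPM in replicate 2 and 85.3 TPM in replicate 1. No member of this list fell below 1 TPM.

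Tubulin RNA is known to be destroyed when free heterodimers are in excess, through Ttc5, which binds the nascent tubulin chain, and through the deadenylase complex that Cnot1 and Cnot11 belong to. Ttc5 had 12.5 TPM in replicate 2 and 7.43 TPM in replicate 1. Cnot1, the scaffold, had 36.4 TPM in replicate 2 and 44.8 TPM in replicate 1, and Cnot11 had 5.93 TPM in replicate 2 and 6.85 TPM in replicate 1. In the binomial test between the libraries Ttc5 passed as higher and Cnot1 as lower in replicate 2, and Cnot11 did not pass, against 78.2% of all genes called.

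The 17 genes of gamma-tubulin ring and augmin complexes, which start new microtubules, were each at 1 TPM or more in both libraries, and the list median was 17.7 TPM in replicate 2 and 15.7 TPM in replicate 1. Mzt1, a small subunit of the ring, had 42.5 TPM in replicate 2 and 34.2 TPM in replicate 1. Tubgcp3, a ring subunit, had 34.0 TPM in replicate 2 and 24.9 TPM in replicate 1, and the augmin subunits Haus4 and Haus3 had 28.2 and 19.2 TPM in replicate 2 and 24.3 and 28.0 TPM in replicate 1. In the binomial test 4 of the 17 passed as higher and 10 as lower in replicate 2, near the 78.2% of all genes called, so these calls are no result about this list.

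Of 17 genes that modify tubulin, 11 reached 1 TPM in both libraries and 4 stayed below it in both. The list median was 5.95 TPM in replicate 2 and 11.1 TPM in replicate 1. Sirt2, a deacetylase, had 33.8 TPM in replicate 2 and 24.9 TPM in replicate 1, and Agtpbp1, which trims glutamate chains, had 16.9 TPM in replicate 2 and 36.3 TPM in replicate 1. Svbp, the partner of Vash1 and Vash2, which remove the terminal tyrosine, had 24.5 TPM in replicate 2 and 28.4 TPM in replicate 1. Vash1 itself had 0.94 TPM from 47 counts in replicate 2 and 0 counts in replicate 1. Vash2 had 0.01 TPM from 1 count in replicate 2 and 0 counts in replicate 1. Ttl, the ligase that adds the tyrosine back and was named after its values were seen, had 2.1 TPM in replicate 2 and 0.43 TPM in replicate 1. Ttll12, of the same family, had 25.1 TPM in replicate 2 and 24.4 TPM in replicate 1. Ttll7 stayed below 1 TPM, with 1 count in replicate 2 and 44 in replicate 1, and Agbl2 had 0 counts. In the binomial test 4 of 15 passed as higher and 7 as lower in replicate 2, near the 78.2% of all genes called.

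Of 25 genes of microtubule assembly and severing, 22 reached 1 TPM in both libraries, and the list median was 9.70 TPM in replicate 2 and 9.44 TPM in replicate 1. The highest were Tacc3, a spindle protein, with 51.6 TPM in replicate 2 and 31.0 TPM in replicate 1, and Kif2a, a kinesin that shortens microtubules, with 48.5 TPM in replicate 2 and 30.0 TPM in replicate 1. Mapre1, which tracks growing ends, had 35.0 TPM in replicate 2 and 40.4 TPM in replicate 1. Ckap5, a polymerase, had 25.2 TPM in replicate 2 and 39.7 TPM in replicate 1. Fign had 0 counts in both libraries, and Mapre3 was at 0 counts in replicate 2 and at 36 in replicate 1. Of 24 in the binomial test, 7 passed as higher and 12 as lower in replicate 2, near the 78.2% of all genes called. Stmn1 lay above each of these genes in both libraries.

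**Figure D5:**
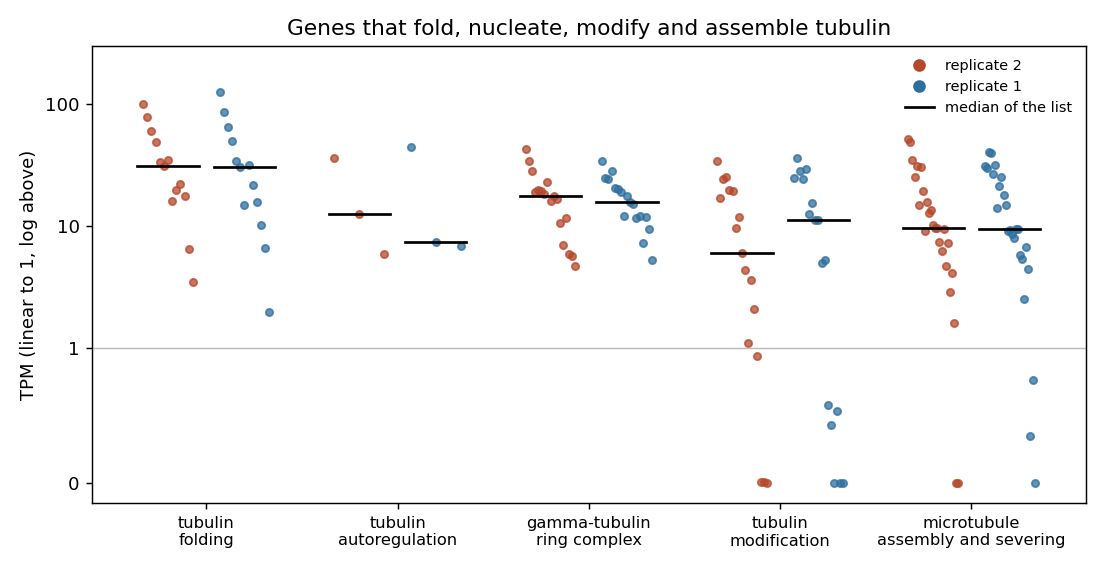
TPM (linear up to 1, log above) of every gene in the lists of tubulin folding, autoregulation, gamma-tubulin ring complex, modification, and microtubule assembly and severing, in replicate 2 (left) and replicate 1 (right), with the median as a bar. All genes of the first 3 lists lie above 1 TPM, and the last 2 lists reach down to 0.

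Checks of the pools bear on how the levels are read. Of 6 genes used to sort CMP, Kit had 93.0 TPM in replicate 2 and 98.1 TPM in replicate 1, Cd34 had 55.4 TPM in replicate 2 and 74.5 TPM in replicate 1, and Ly6a and Il7r, which the sort excludes, had 0 counts in both libraries. Fcgr2b, an Fc receptor gene, had 9.59 TPM in replicate 2 and 2.48 TPM in replicate 1, and Fcgr3 had 4.27 TPM in replicate 2 and 0.64 TPM in replicate 1. Both were higher in replicate 2 in the binomial test (adjusted p = 3.67e-13 for Fcgr2b and 1.47e-15 for Fcgr3). In that test Cd34 was lower in replicate 2 (log2 ratio -0.48, adjusted p = 4.61e-38) and Kit did not pass. These calls stand beside 78.2% of all genes called and are no result about the gate genes. Of 12 erythroid markers, 9 reached 1 TPM in both libraries, and their summed level was 1636 TPM in replicate 2 and 1839 TPM in replicate 1, mostly from Car1. Their part in the differences of the tubulin genes between the libraries was not tested, nor was that of the gate and megakaryocyte markers.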

How the data were processed

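Total RNA-seq gene and transcript tables of 2 CMP libraries were used, with replicate numbers taken from the labels. Reads were aligned to the transcriptome of mm10 with GENCODE M4, per the notes deposited beside the tables, and which aligner and quantifier were used is not given in the sources here. The deposited expected counts are estimates that divide reads shared between genes. The deposited TPM values are per 1000000 over all entries, tRNA and spike-ins included. The deposited percent values give each transcript's share of its gene's TPM. The deposited effective lengths, posterior mean TPM and posterior SD of counts were treated as scores, and the deposited interval bounds of TPM, whose level the file does not state, as signal that was not used.

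Of 43346 mouse gene identifiers, 42462 were found, version suffixes dropped, in GENCODE M21 (GRCm38). Coding and tail sequences come from M21 transcripts with complete coding sequences, and identities from pairwise alignment in Biopython 1.88. The members and gene lists were chosen with earlier results of these data known. Named genes are the members, all genes of the tubulin and stathmin lists, and for other lists the 4 highest and up to 4 below 1 TPM in both libraries. Markers are named by example, and Ttl was named after its values were seen.

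Ratios to Tuba1b or Tubb5 used log2(TPM + 1), nuclear protein-coding genes with a mean TPM of 1 or more, and limma 3.58.1 with a variance trend, two-sided. Between the libraries, rounded expected counts of genes reaching 10 counts in either were tested by the exact binomial test, two-sided (SciPy 1.17.1), with TMM sizes from edgeR 4.0.16; spike-ins, tRNA entries and ribosomal RNA genes were left out. edgeR's quasi-likelihood test was not used because 1 library per side leaves no residual degrees of freedom. Fisher's exact test, two-sided, compared leading transcripts of genes that have at least 2 transcripts and at least 50 counts per library. Benjamini-Hochberg adjustment ran over all genes tested, at 0.05. The tests were tested on simulated data. Replicate 2 held 26426710 expected counts and replicate 1 held 28916263, so a gene at 0 is limited to 0.114 and 0.104 counts per 1000000 (3 counts). Alternatives were another pseudocount, no filters, posterior means, no length correction, no variance trend, DESeq2 1.42.0 size factors, total counts, the edgeR exact test, other transcript sets and leaving out each library. The complete-transcript length and the use of Tuba1a-201 alone were chosen after seeing the data. The tail sequences of some members are not reported here.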

Additional observations from a re-analysis of the deposited data

How the results depend on the processing

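All 3 alpha and all 3 beta members tested stayed lower than Tuba1b and Tubb5 under the other pseudocount, without the filter and with posterior means. They also stayed lower without length correction, without the variance trend and with complete transcript lengths. In the main setting 99.0% of all 10380 genes were lower than Tuba1b and 98.1% were lower than Tubb5. These counts are therefore no result about the members. Without length correction the log2 ratio of Stmn1 to Tubb5 was -1.09 and the mean share of Tubb5 in the beta pool was 75.5%, since longer transcripts then weigh more. With complete transcript lengths, chosen after seeing the data, the mean share of Tuba1b was 88.0%. Scaling by total counts gave a log2 ratio of 0.17 for Stmn1 between the libraries. With 1 common dispersion, estimated from the same 2 libraries, edgeR's exact test called 0 members and 0 of all genes. From Tuba1a-201 alone, also chosen after seeing the data, Tuba1a was higher in replicate 2 (log2 ratio 1.22, adjusted p = 9.16e-16). DESeq2 size factors, no count minimum and posterior means changed no member's call between the libraries. With protein-coding transcripts alone, 4 members had a leading transcript to test and 4 passed. In the main setting 77.7% of all 7354 genes tested passed, so this count is no result about the members. Leaving out a library left no test. No paired analysis was possible because all samples belong to 1 group. The depth limits Tubb6, Tubb2a and Tubb1, which rest on 0 to 84 counts.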
